A study of Mus musculus and Homo sapiens with 4 samples.

Results

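The G2/M cell cycle genes described here are 31 listed genes that act from entry into mitosis to the separation of the daughter cells, picked by name whatever their probe sets read. The list was drawn up with earlier results of these arrays known, so its counts describe these arrays and are no independent evidence of a direction. All 31 were found among 19773 named genes on the human array, on 61 probe sets. On the mouse array 30 were found among 18193 named genes, on 68 probe sets, and cyclin B1 was not analysed there. Expression was measured on 4 Affymetrix arrays, 1 for each stably infected culture. The groups were A375M cells, a human melanoma line, carrying the retroviral plasmid pSIREN-RetroQ with a hairpin against human Merm1/Wbscr22, A375M cells carrying its control version, LM8 cells, a mouse osteosarcoma line, carrying the hairpin against mouse Merm1/Wbscr22, and LM8 cells carrying the control version. Merm1/Wbscr22, now BUD23, encodes a methyltransferase of 18S ribosomal RNA. A375M cells grew in DMEM and LM8 cells in MEM, both with 10% serum, and the labels mention no synchronisation. They do not say whether a culture came from 1 clone.

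Cells prepare for mitosis by building up cyclins A and B, which activate the kinase CDK1. Transcripts of these and many other mitotic genes are scarce in resting cells and most abundant in G2 and mitosis. In mammalian cells the DREAM complex holds such genes down early in the cycle, and its MuvB core, joined by B-MYB and FOXM1, activates them late, through an element called the cell cycle homology region and through boxes bound by the factor NF-Y. Pathologists use several of the products, MKI67 above all, to gauge the growth of melanomas and sarcomas.

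The promoters show what the members share beyond the rule. RefSeq start sites of build GRCm38.p6 gave windows of 300 bases, 250 before and 50 after the start, for 26 mouse members. Both strands were searched for the letters TTTGAA, the core of the cell cycle homology region (CHR), and for the letters of the NF-Y box, CCAAT. The CHR letters occurred in 20 of the 26 (76.9%), against 20.2% of 27025 genes, and lay within 40 bases of the start in 19 (73.1%, against 4.88%). NF-Y box letters occurred in 22 (84.6%, against 41.1%) and at least 2 times in 16 (61.5%, against 13.3%). The motifs overlapped in 1 window, that of Cdca8. Windows of Nusap1, Pttg1 and Birc5 held neither, which says only that these letters are absent there. Among 36 S phase genes with a window 4 held the CHR letters (11.1%) and 22 those of the NF-Y box (61.1%). Among 64 other mitotic genes with a window 38 held the CHR letters (59.4%), 27 of them within 40 bases of the start (42.2%), and 41 held those of the NF-Y box (64.1%). Such matches describe the windows and show no binding. The windows of 5 members follow, with matches to either motif on either strand in capitals: Aurka and Ccnb2, which read lower in the LM8 knock-down array by at least 1.1-fold, Cdc20 and Cdk1, which read higher there by as much, all 4 with at least 2 NF-Y boxes, and Mki67, the classical proliferation marker.
Aurka, chr2:172370521-172370820, minus strand: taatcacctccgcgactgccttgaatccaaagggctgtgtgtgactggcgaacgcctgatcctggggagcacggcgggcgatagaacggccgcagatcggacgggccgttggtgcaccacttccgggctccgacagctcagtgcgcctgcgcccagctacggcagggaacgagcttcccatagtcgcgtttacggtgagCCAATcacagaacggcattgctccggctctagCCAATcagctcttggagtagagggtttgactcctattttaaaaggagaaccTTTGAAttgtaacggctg
Ccnb2, chr9:70421505-70421804, minus strand: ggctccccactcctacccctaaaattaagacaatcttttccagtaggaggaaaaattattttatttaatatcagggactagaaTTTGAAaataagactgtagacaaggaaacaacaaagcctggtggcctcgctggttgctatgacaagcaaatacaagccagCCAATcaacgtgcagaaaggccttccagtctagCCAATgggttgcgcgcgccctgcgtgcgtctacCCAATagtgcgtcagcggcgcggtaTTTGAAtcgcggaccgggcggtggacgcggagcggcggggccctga
Cdc20, chr4:118437294-118437593, minus strand: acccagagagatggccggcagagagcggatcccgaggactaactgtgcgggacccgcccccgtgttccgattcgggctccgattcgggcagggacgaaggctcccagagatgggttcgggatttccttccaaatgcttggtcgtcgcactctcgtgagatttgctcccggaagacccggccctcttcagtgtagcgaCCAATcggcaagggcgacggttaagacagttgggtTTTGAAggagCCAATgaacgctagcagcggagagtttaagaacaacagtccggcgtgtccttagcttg
Cdk1, chr10:69352863-69353162, minus strand: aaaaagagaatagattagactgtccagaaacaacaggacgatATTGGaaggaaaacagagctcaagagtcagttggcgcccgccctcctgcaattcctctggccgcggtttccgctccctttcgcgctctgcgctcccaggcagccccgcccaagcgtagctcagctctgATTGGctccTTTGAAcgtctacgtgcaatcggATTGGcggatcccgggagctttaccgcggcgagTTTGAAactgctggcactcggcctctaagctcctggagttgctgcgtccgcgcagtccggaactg
Mki67, chr7:135716330-135716629, minus strand: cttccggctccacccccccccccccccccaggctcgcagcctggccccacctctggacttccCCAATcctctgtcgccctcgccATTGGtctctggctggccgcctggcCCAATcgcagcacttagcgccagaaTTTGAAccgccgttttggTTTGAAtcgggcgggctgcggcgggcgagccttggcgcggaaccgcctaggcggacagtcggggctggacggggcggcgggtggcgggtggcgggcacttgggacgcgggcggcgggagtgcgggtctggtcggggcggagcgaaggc
In Aurka the CHR letters began 32 bases after the start, behind NF-Y boxes 51 and 19 bases before it. Ccnb2 had NF-Y boxes 87, 54 and 21 bases before the start and CHR letters 4 bases after it, with a further match 167 bases before. Cdc20 had CHR letters 18 bases before the start, between NF-Y boxes 53 and 8 bases before it. In Cdk1 the CHR matches lay 71 and 15 bases before the start, and in Mki67 both lay farther out, 116 and 98 bases before it. Genes with both motifs thus read on both sides of 0 in LM8. The 20 measured mouse members with CHR letters had a median difference of 0.034 (8 lower, 12 higher), and the 5 without them had 0.023 (2 lower, 3 higher).

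Values are log2 expression per probe set, and a difference is the knock-down array's value less that of the control array of its line. A gene is represented by its brightest probe set and was kept where that lay above the array median in either array. All 31 human and 30 mouse members were kept. Since every group had 1 array, differences inside a line carry no p-value, and having only 4 arrays limits the precision. The spread between kept probe sets of 1 gene (median SD 0.071 in A375M and 0.12 in LM8) gives a technical gauge that leaves out the spread between cultures. Among members with several kept probe sets the median SD was 0.113 in A375M and 0.110 in LM8. The target transcript was lower in both knock-down arrays, at 8.38 against 10.70 in A375M controls and at 8.48 against 10.61 in LM8 controls. All 10 melanocyte markers measured in A375M lay above the median of both arrays, as did all 7 osteoblast markers measured in LM8. Osteoblast markers did so for 5 of 9 in A375M (RUNX2, SPP1, COL1A1, COL1A2 and DLX5). Melanocyte markers did so for 4 of 11 in LM8 (MITF, SOX10, RAB27A and S100B). Among the other lists, leukocyte markers did so for 3 of 6 in A375M and 2 of 6 in LM8, endothelial markers for 3 of 6 and 2 of 6, epithelial markers for 2 of 7 and 1 of 7, and fibroblast markers for 7 of 8 in each line. Above it were KDR and VWF in both lines, with CD3E, ITGAM, LYZ, PECAM1, KRT8 and KRT18 in A375M and CD14, CSF1R and EPCAM in LM8, while PTPRC, CDH5, TEK, EMCN and CDH1 were not in either line. Fibroblast markers differed by a median of 0 in A375M and 0.19 in LM8, and their part in the results was not tested. Polyadenylated spike-ins differed by a median of 0.017 in A375M and 0.14 in LM8. Hybridisation spike-ins differed by a median of 0.056 in A375M and -0.00045 in LM8.

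In A375M most G2/M transcripts read lower in the knock-down array, nearly all by small amounts. Of the 31 members 26 read lower, where 40.3% of 13244 kept genes did, and 0 read higher, where 29% of kept genes did. The remaining 5 (30.8% of kept genes read identical), CCNA2, PLK1, CENPA, KIF11 and HMMR, had identical values in both arrays on their brightest probe sets. The median difference was -0.088, against 0 over all kept genes. Among the 9364 genes above the 70th percentile of signal, which include 30 members, 48.2% read lower. When the pair was quantile normalized again, 20 members read lower and 10 higher, where 36.5% and 57.2% of all genes did, with a median of -0.035 against 0.019 for all genes, so the direction of several single members depends on the scaling. Removal of a loess curve gave 25 lower and 6 higher, where 45.9% and 54.1% of all genes did. At least 1.1-fold lower were 8 members, where 14.3% of kept genes were, and 0 were as much higher, where 8.63% were. None was 1.5-fold higher, where 0.378% of kept genes were, or 2-fold higher, where 0.0831% were. Each array averages a whole culture, so a smaller share of cells in G2 or mitosis and less transcript per such cell cannot be told apart.

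**Figure D1:**
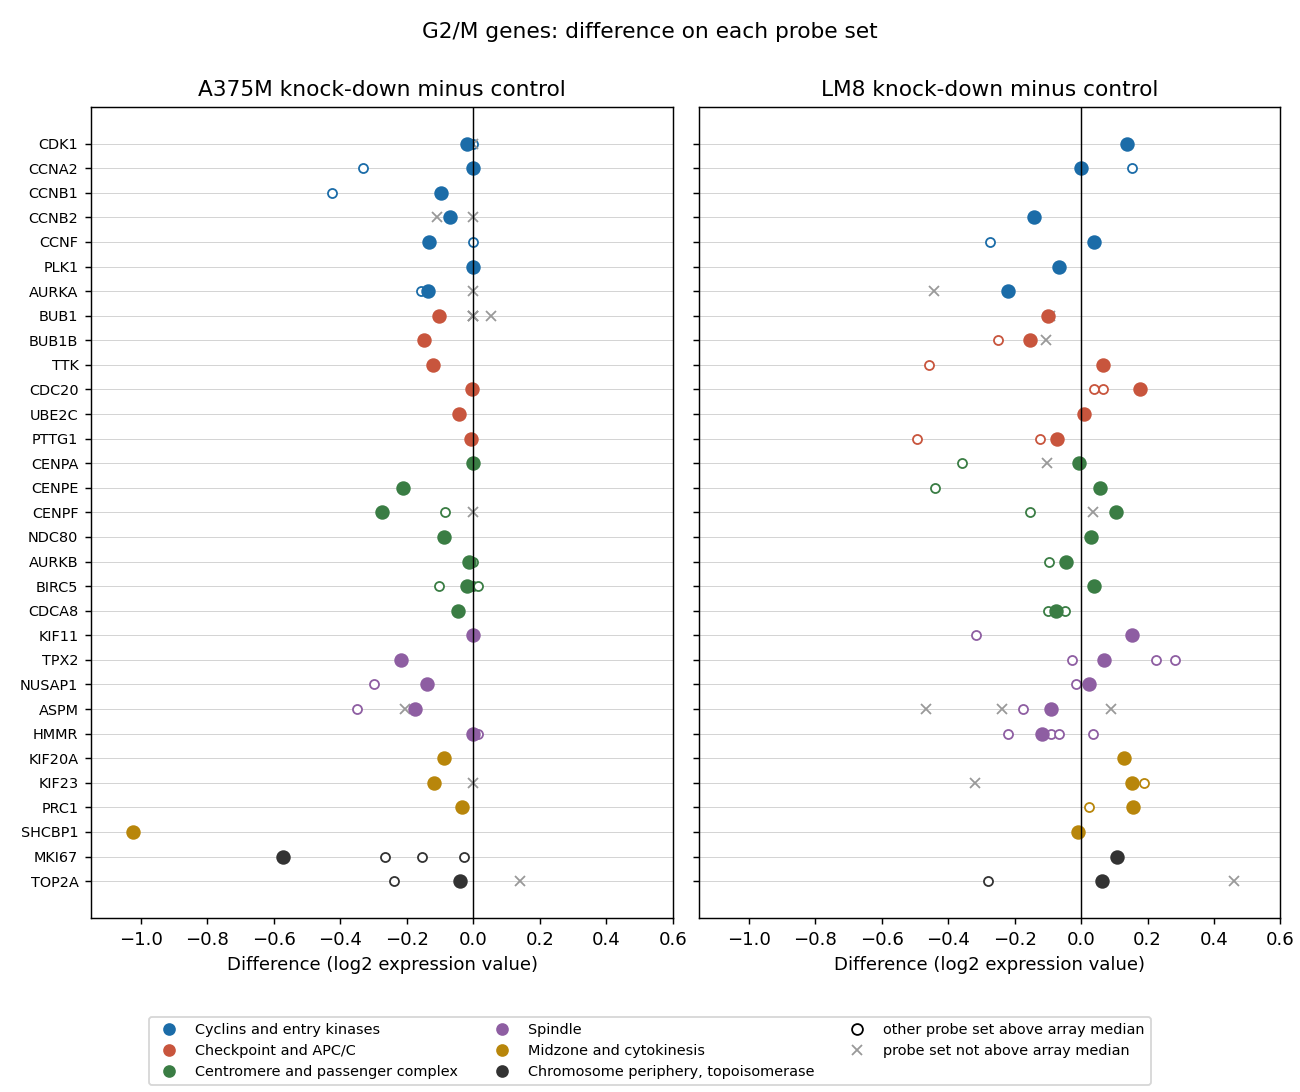
Knock-down minus control difference (log2 expression value) of every probe set of each G2/M gene, with A375M in the left panel and LM8 in the right. Filled points are the brightest probe set, coloured by role, open points other probe sets above the array median and crosses dim ones. In A375M 38 of 49 probe sets above the median lie left of 0 and 2 right of it, while LM8 points lie on both sides.

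Single probe sets gave similar counts in A375M. Of 49 member probe sets above the array median 38 read lower, 2 higher and 9 identical, where 40.2% of all 27617 such probe sets read lower. The 2 higher ones were further probe sets of BIRC5 (0.014) and HMMR (0.013), both below the technical gauge. The brightest probe sets of CDC20, PTTG1, AURKB, BIRC5, CDK1, PRC1, TOP2A, UBE2C, CDCA8 and CCNB2 read lower by less than that gauge (0.071) too. Of 13 members with several kept probe sets, all of them read lower in 7 and none had all of them higher. Identical values recur widely on these human arrays, where 45.4% of all probe sets and 17 of 61 member probe sets read exactly alike in both. Of the 122 member values 73 also occurred in another probe set of the same array, and no source used here gives the step that made them. An identical value therefore does not show that a transcript was unaltered. The brightest probe sets of 13 human and 5 mouse members carry the marks _s_at or _x_at, given to probe sets whose probes match several transcripts.

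SHCBP1, whose product sits at the midbody and takes part in the last step of cytokinesis, had by far the lowest difference of the list in A375M. It read 7.84 in the knock-down array and 8.86 in the control array, a difference of -1.03, which leaves 49.1% of the control signal. It ranked 6 from the lowest of 13244 kept genes. As the single member it passed 1.5-fold, which 0.37% of kept genes did downwards, and 2-fold, which 0.0453% did. MKI67 (-0.572) fell just short of the 1.5-fold threshold of 0.585. SHCBP1 did not reach 2-fold after repeated quantile normalization (-0.98) and with 32 added to the linear value (-0.93). The gene has 1 probe set on each array. In LM8 Shcbp1 read 11.78 in the knock-down array and 11.79 in the control array, a difference of -0.010.

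MKI67 encodes the Ki-67 protein that coats mitotic chromosomes and keeps them apart. Its brightest human probe set read 6.45 in the A375M knock-down array and 7.02 in the control array, a difference of -0.57 or 67.3% of the control signal. The other 3 probe sets read 5.83 against 6.09, 6.28 against 6.44 and 5.71 against 5.74, so all 4 were lower but by very unequal amounts, from -0.57 to -0.030. The mean over the MKI67 probe sets was -0.26. The mouse probe set was higher, with 11.19 in the LM8 knock-down array and 11.08 in the control array, a difference of 0.11. TOP2A encodes topoisomerase II alpha, which untangles sister chromatids. Its bright human probe sets read 10.00 against 10.04 and 9.83 against 10.07, differences of -0.041 and -0.24. In LM8 Top2a differed by 0.063 on its brightest probe set and by -0.28 on a dimmer one.

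**Figure D2:**
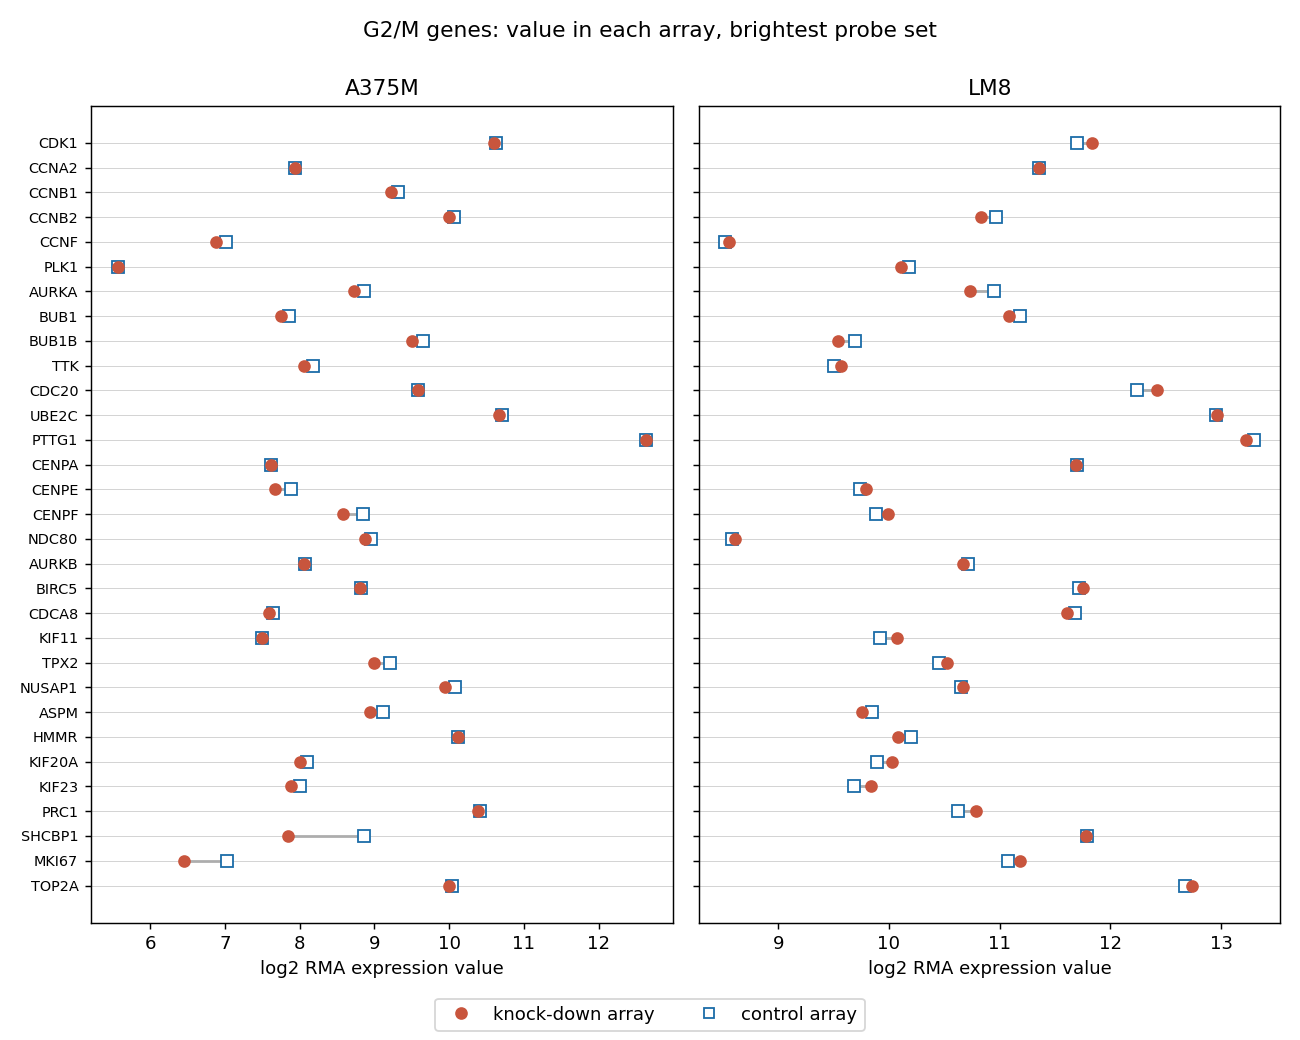
log2 RMA expression value of each G2/M gene in the knock-down array (filled circles) and the control array (open squares), brightest probe set, A375M left and LM8 right. SHCBP1 and MKI67 show the widest gaps in A375M, and in LM8 no gap exceeds that of Aurka (10.73 against 10.95). Levels of different genes come from different probes and are not comparable.

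Of 7 cyclins and kinases of mitotic entry 5 read lower and 2 identical in A375M (median -0.070), and of 6 in LM8 4 read lower and 2 higher (median -0.034). AURKA, the kinase of centrosome maturation, was lower in both lines. It read 8.73 in the A375M knock-down array and 8.87 in the control array (-0.137), with -0.16 on its other kept probe set. Aurka read 10.73 in the LM8 knock-down array and 10.95 in the control array (-0.22), the lowest member there. CCNB2, cyclin B2, was also lower in both lines, at 10.00 against 10.06 in A375M (-0.070) and at 10.83 against 10.97 in LM8 (-0.14). CCNB1, cyclin B1, read 9.22 in the A375M knock-down array and 9.32 in the control array (-0.098), and its dimmer probe set read 6.56 and 6.98 (-0.42).

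CDK1, the kinase that these cyclins activate, gave opposite small differences. It read 10.61 in the A375M knock-down array and 10.63 in the control array (-0.020), and Cdk1 read 11.83 in the LM8 knock-down array and 11.69 in the control array (0.14). CCNA2, cyclin A2, read 7.94 in both A375M arrays on its brightest probe set, while another read 6.86 against 7.19 (-0.33). In LM8 its probe sets differed by -0.0015 and 0.15. CCNF, the F-box protein cyclin F, was at -0.13 in A375M and 0.038 in LM8, where a dimmer probe set gave -0.27 and the average for CCNF was -0.12, and PLK1, the polo kinase that promotes mitotic entry and spindle assembly, at 0 and -0.066.

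The spindle checkpoint and the ubiquitin ligase APC/C time the exit from mitosis. BUB1B, which encodes the checkpoint protein BUBR1, was lower in both lines, with 9.50 against 9.65 in A375M (-0.15) and 9.54 against 9.69 in LM8 (-0.15, and -0.25 on another kept probe set). Its partner kinase BUB1 differed by -0.10 in A375M and -0.098 in LM8. TTK, the checkpoint kinase MPS1, was at -0.12 in A375M and 0.066 in LM8. The genes of APC/C function lay closer to 0 in A375M. CDC20, which activates APC/C, read 9.58 in both A375M arrays to 2 decimals, with a difference of -0.0030, and UBE2C, a ubiquitin-conjugating enzyme of APC/C, differed by -0.043 and PTTG1, the securin that APC/C destroys, by -0.0088. In LM8 Cdc20 read 12.42 in the knock-down array against 12.24 in the control array (0.18), and its other 2 probe sets were higher as well, by 0.066 and 0.038. The widest value came from a probe set marked as shared, and CDC20 was at 0.038 without marked probe sets and at 0.094 on average. Ube2c differed by 0.0075, and Pttg1 was lower on all 3 mouse probe sets, from -0.49 on the dimmest to -0.072 on the brightest.

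Of 7 centromere and kinetochore genes 6 read lower and 1 identical in A375M (median -0.046), CENPF and CENPE the lowest. CENPF, a coiled-coil protein of the outer kinetochore, read 8.57 in the knock-down array and 8.85 in the control array (-0.28), while a dimmer probe set gave -0.086 and the average for CENPF was -0.12. CENPE, a kinesin that moves chromosomes to the spindle equator, read 7.67 and 7.88 (-0.21), and NDC80, which binds microtubules, read 8.87 and 8.96 (-0.090). CENPA, the histone H3 variant that marks centromeres, was identical at 7.62. The passenger complex genes lay nearer 0, with the kinase gene AURKB at -0.014, BIRC5 (survivin) at -0.018 and CDCA8 (borealin) at -0.046. In LM8 the same 7 genes ranged from -0.075 (Cdca8) to 0.11 (Cenpf), 3 lower and 4 higher, and none reached 1.1-fold on its brightest probe set. Dimmer kept probe sets gave -0.44 for Cenpe, -0.36 for Cenpa and -0.15 for Cenpf, and averaging took CENPE to -0.19 and CENPA to -0.16 in LM8, both past 1.1-fold.

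Spindle proteins split in A375M into 3 lower and 2 identical genes. TPX2, which activates Aurora A on the spindle, read 8.99 in the knock-down array and 9.21 in the control array (-0.22). ASPM, a spindle pole protein, read 8.94 and 9.12 (-0.17), with -0.35 on another probe set, and NUSAP1, which bundles microtubules, read 9.94 and 10.08 (-0.14), with -0.30 on another. HMMR, a microtubule-binding protein of the spindle, read 10.12 in both arrays and KIF11, the kinesin that pushes spindle poles apart, 7.50. In LM8 Kif11 was higher on its bright probe sets, at 10.08 against 9.92 (0.15) on the brightest, but lower on a dimmer one (-0.32), and the mean of the 3 for KIF11 was -0.0048. Tpx2 differed by 0.068, and its dimmer kept probe sets by 0.22, 0.28 and -0.026. Nusap1 differed by 0.023, Aspm by -0.091 and Hmmr by -0.12. The other kept Hmmr probe sets ranged from -0.22 to 0.037.

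Of the 4 midzone and cytokinesis genes all but SHCBP1 had opposite signs in the lines. KIF23, a kinesin of centralspindlin, read 7.89 in the A375M knock-down array and 8.01 in the control array (-0.12), against 9.84 and 9.68 in the LM8 arrays (0.15). With dim probe sets averaged in, KIF23 was at 0.0080 in LM8. KIF20A, a kinesin that brings the passenger complex to the midzone, differed by -0.088 in A375M and 0.13 in LM8. PRC1, which crosslinks midzone microtubules, differed by -0.035 in A375M and 0.16 in LM8, where its other probe set, the one not marked as shared, was at 0.023. The median of the 4 was -0.10 in A375M and 0.14 in LM8.

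In LM8 members read both lower and higher. Of 30 members 13 read lower and 17 higher, where 46% and 53.8% of 11646 kept genes did, and none was identical, where 0.172% were, and the median difference was 0.026 against 0.015 over all kept genes. At least 1.1-fold lower were 3 members, Aurka, Bub1b and Ccnb2, where 18.4% of kept genes were, and 5 were as much higher, Cdc20, Prc1, Kif23, Kif11 and Cdk1, where 22.6% were. None reached 1.5-fold in either direction, which 1.31% of kept genes did downwards and 1.16% upwards, or 2-fold lower (0.318%) or higher (0.155%). These shares are near or below the background of the array. Cdk1 (0.138) lay just inside the 1.1-fold threshold of 0.1375 and Kif20a (0.130) just outside it, as did AURKA (-0.137) in A375M beside NUSAP1 (-0.139).

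**Figure D3:**
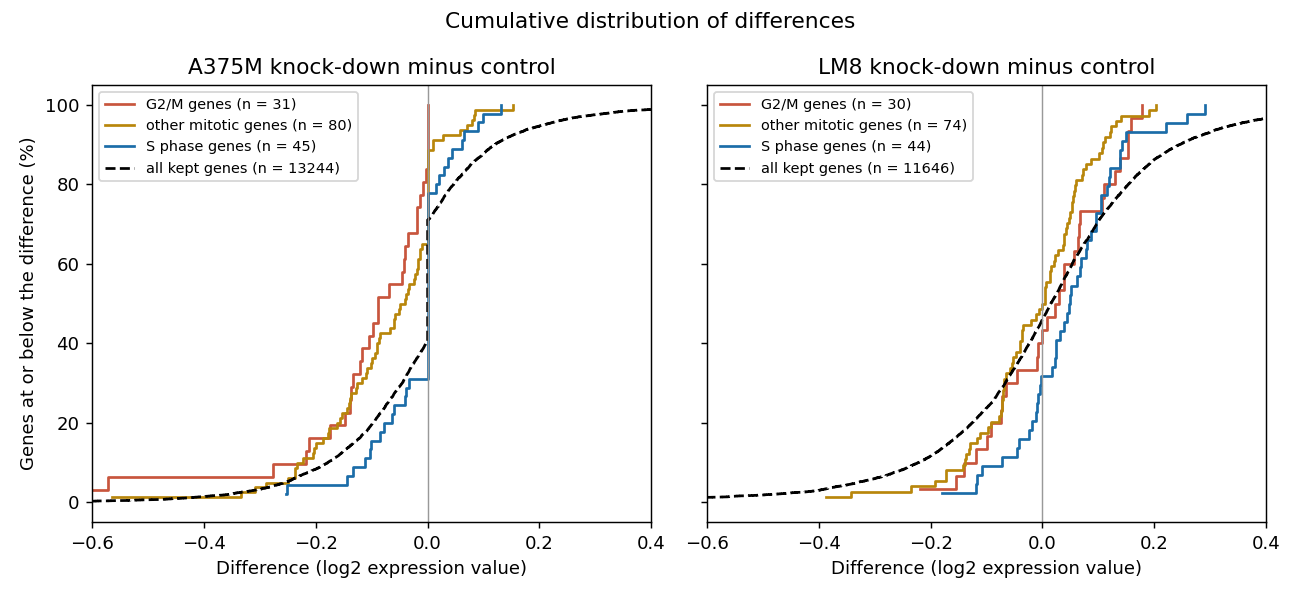
Cumulative share of genes (%) against the knock-down minus control difference (log2 expression value) for G2/M genes, other mitotic genes, S phase genes and all kept genes, A375M left and LM8 right. In A375M the G2/M curve runs left of all kept genes and ends at 0, and SHCBP1 (-1.03) lies beyond the left edge. In LM8 the curves of G2/M genes and all kept genes cross near the middle.

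Of 58 LM8 member probe sets above the array median 32 read lower and 26 higher (median -0.012). Among all 23099 such probe sets 48.8% read lower. In LM8, 10 of 19 members with several kept probe sets had probe sets of both signs, 6 had all of them lower and 3 all higher. There the dimmest kept probe set had a lower difference than the brightest in 16 of 19 members (84.2%), against 54.9% of 5313 genes with several kept probe sets. The median difference of these members was -0.17 on the dimmest and 0.038 on the brightest probe set, against -0.014 and 0.014 over all such genes. Among those of both signs Ttk gave -0.46 and 0.066, Cenpe -0.44 and 0.057, and Top2a -0.28 and 0.063, while Pttg1 (-0.49 and -0.072) was lower on both. In A375M the count was 7 of 13 (53.8%, against 42.4% of 6265 genes), with medians of -0.10 and -0.098. Averaging all probe sets of a gene, dim ones included, gave 17 of 30 mouse members lower (48.3% of all genes were), a median of -0.0076 against 0.0063 for all genes, and 8 members at least 1.1-fold lower with 1 higher, where 18.5% and 18.9% of all genes were. The part of signal strength in this was not tested.

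**Figure D4:**
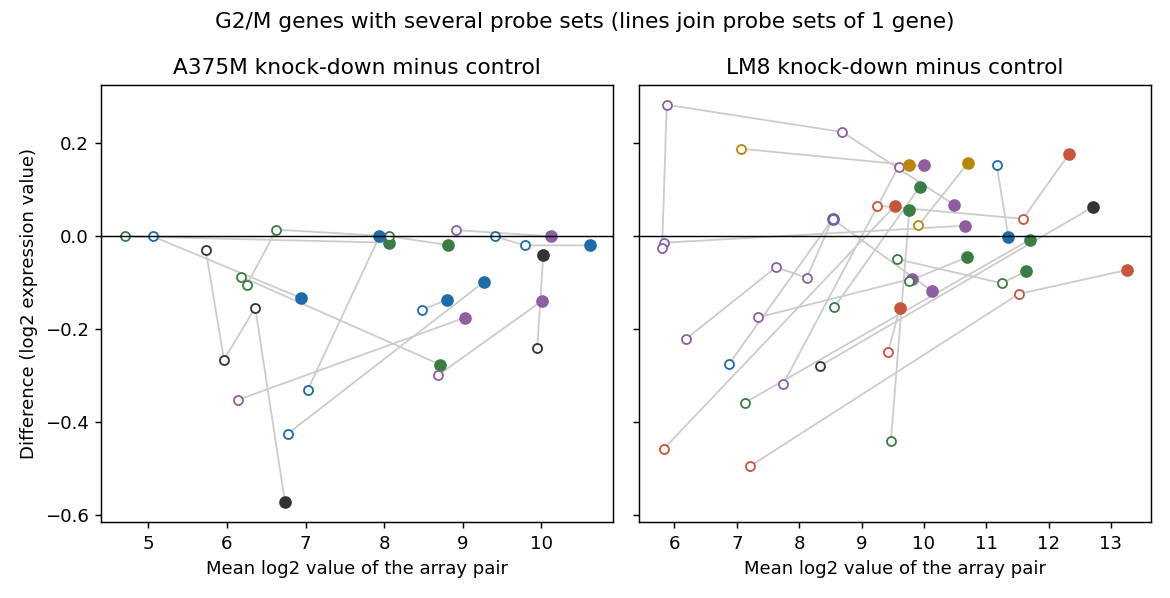
Difference (knock-down minus control, log2) against mean log2 value of the array pair for G2/M genes with several probe sets above the array median, A375M left and LM8 right. Filled points are the brightest probe set of a gene and grey lines join its probe sets. In LM8 16 of 19 lines end higher at the brightest probe set than they begin at the dimmest.

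The lines were then set side by side. Of 30 members measured in both, 9 read lower in both (20.7% of 8981 genes kept in both were), 0 were higher in both (14.9% of all genes were) and 16 were lower in A375M and higher in LM8 (24.0% of all genes were). The difference was lower in A375M than in LM8 for 20 of the 30, where it was for 58.6% of all genes, and the median of A375M less LM8 was -0.11 against -0.038. Across these 30 genes, which are not independent replicates and share the 4 arrays, the differences of the lines had a Pearson correlation of -0.035 (-0.12 without SHCBP1) and a Spearman correlation of -0.0016, against 0.033 and 0.0080 over all genes. A limma fit of the mean difference over both lines, with the line as a block and a mouse and a human line taken as replicates, called 0 of 30 members at an adjusted p under 0.05 over 8981 genes, where 0.0111% of genes, the target alone, were called. That call was itself lost in 4 of 7 alternatives, with no filter, with averaged probe sets, without marked probe sets and with no replicate block. At an unadjusted p under 0.05 the fit called 0 members and 3.1% of genes. AURKA had the lowest p of the members, with a mean of -0.18 ± 0.082 (SE, lower in 2 of 2 lines, limma adjusted p = 0.994), and SHCBP1 had -0.52 ± 0.24 (SE, limma adjusted p = 0.994). In LM8 SHCBP1 lay within the technical gauge (-0.010), and with arrays centred on their medians it was at 0.0012, so its mean rests on A375M. Over the alternative settings the lowest adjusted p of any member in limma ranged from 0.977 to 1. In simulated data the fit recovered 77 of 100 genes shifted by 1.5 in both lines and 3 of 100 shifted by -0.7. The member means, with SHCBP1 (-0.52) the widest, were smaller than either shift, and shifts of their size were not simulated. The simulation also gave both lines the same spread and held no identical values. The lack of calls therefore does not show that members were unaltered.

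**Figure D5:**
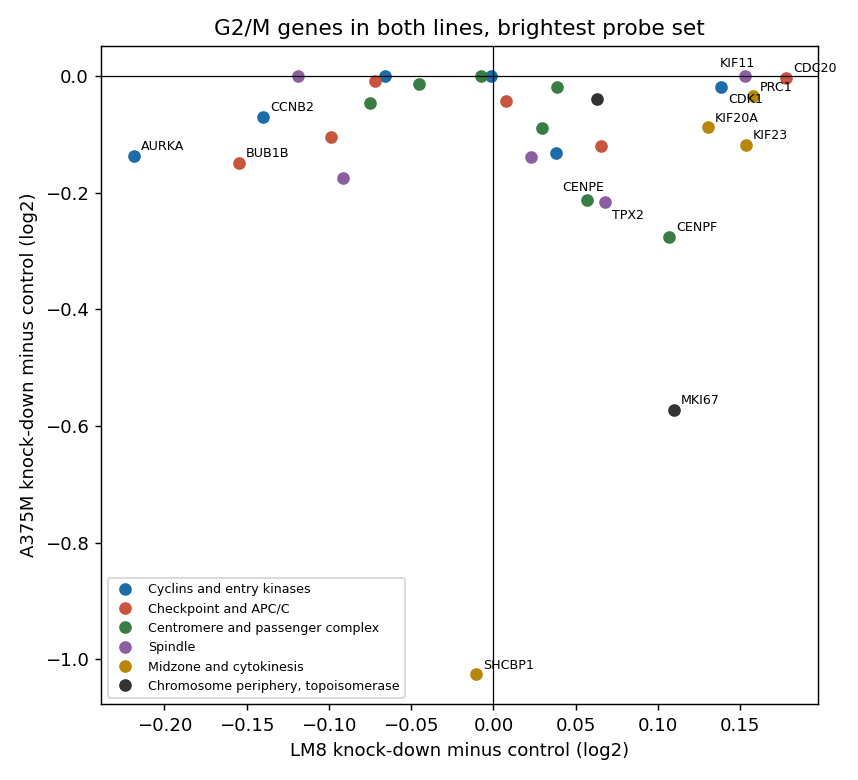
Knock-down minus control difference (log2) of 30 G2/M genes in A375M (vertical axis) against LM8 (horizontal axis), brightest probe set, coloured by role. The 16 points in the lower right are lower in A375M and higher in LM8, the 9 in the lower left are lower in both, and 5 lie at 0 for A375M.

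Other mitotic genes were counted in the same way. Of 80 kept in A375M 52 read lower (65%), 9 higher (11.25%) and 19 identical, with a median of -0.046. Over all kept genes there 40.3% read lower, 29% higher and 30.8% identical. At least 1.1-fold lower were 22, with 1 as much higher, where 14.3% and 8.63% of kept genes were. PLK4, the kinase of centriole duplication, read 6.36 in the A375M knock-down array and 6.92 in the control array (-0.57). NCAPG and NCAPG2, condensin subunits, differed by -0.33 and -0.29 and the kinesin gene KIF14 by -0.31. In LM8 37 of 74 read lower and 37 higher (50% each), where 46% and 53.8% of kept genes did, with a median of 0.0015. Psrc1, which regulates spindle microtubules, differed there by -0.39, Cdca2 by -0.34, the kinetochore gene Knl1 by -0.24 and Plk4 by 0.20. Kept probe sets ranged from -0.34 to 0.069 for Cdca2 and from -0.19 to 0.20 for Plk4. Repeated quantile normalization gave an A375M median of -0.0027 for the other mitotic genes, against 0.019 for all genes.

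S phase genes precede the members in the cycle. Of 45 kept in A375M 14 read lower (31.1%), 10 higher (22.2%) and 21 identical, with a median of 0. Over all kept genes there 40.3% read lower, 29% higher and 30.8% identical. CDC45, of the replicative helicase, differed by -0.25, the chromatin assembly factor gene CHAF1B by -0.25, the polymerase gene POLD1 by -0.14 and the origin licensing gene CDC6 by -0.13. In LM8 30 of 44 read higher (68.2%) and 14 lower (31.8%), where 53.8% and 46% of kept genes did, with a median of 0.049. Pole (0.29), Ung (0.26), Rfc3 (0.22) and Pole2 (-0.18) had the widest differences there.

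Transcription regulators of cell cycle genes, complex subunits included, were mixed. Of 20 kept in A375M 9 read lower (45%), 5 higher (25%) and 6 identical, with a median of 0. Over all kept genes there 40.3% read lower, 29% higher and 30.8% identical. Of 21 in LM8 10 read lower (47.6%) and 11 higher (52.4%), where 46% and 53.8% of kept genes did. Their LM8 median was 0.090 on the brightest probe sets and -0.0019 with probe sets averaged per gene. MYBL1, which encodes A-MYB, read 7.35 in the A375M knock-down array and 7.94 in the control array (-0.59), with -0.35 on another kept probe set. The average for MYBL1 was -0.31 there, and kept Mybl1 probe sets in LM8 ranged from -0.72 to -0.041. E2F7, a repressor that acts late in S phase, read 7.97 against 8.44 in A375M (-0.48). The MuvB subunit genes LIN9 and LIN37 differed by -0.28 and -0.15, LIN9 at a low level (5.27 against 5.54). LIN37 was at 0 without marked probe sets. FOXM1 and MYBL2, the main activators of mitotic genes and named here after their values were seen, read 7.46 and 7.94 in both A375M arrays. In LM8 Foxm1 read 7.66 against 7.54 (0.12) and Mybl2 8.07 against 7.98 (0.090). E2f7 (0.30), Rbl2 (0.24), E2f5 (-0.32) and the NF-Y subunit gene Nfyb (-0.31) had the widest mouse differences. Kept probe sets ranged from -0.47 to -0.012 for E2f5 and from -0.31 to 0.025 for Nfyb, and the average for NFYB was -0.14.

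Subunits and partners of APC/C read higher in LM8 as a list. There 14 of 17 were higher (82.4%) and 3 lower (17.6%), where 53.8% and 46% of kept genes were. The median was 0.11 against 0.015 over all kept genes. The widest differences were those of Anapc15 (0.23), Anapc4 (0.21), Cdc16 (0.21) and Anapc5 (0.20). All kept probe sets of these 4 genes were higher, 6 of them for Anapc5 but only 1 for Cdc16. With dim probe sets averaged in, CDC16 was at 0.081 in LM8. The list median lay below that of the polyadenylated spike-ins in LM8 (0.14) and above that of the hybridisation spike-ins (-0.00045). The part of a shift like that of the polyadenylated spike-ins was not tested. In A375M 5 of 16 were lower (31.25%), 3 higher (18.75%) and 8 identical, with a median of 0. Over all kept genes there 40.3% were lower, 29% higher and 30.8% identical. CDC23 was at -0.20, ANAPC16 at -0.097, CDC26 at -0.087 and ANAPC4 at -0.079.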

How the data were processed

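Biotin-labelled RNA from 4 cultures was hybridised to Affymetrix arrays, 1 array a group, grouped by sample title. What the authors deposited is a log2 expression value for each probe set. RMA is the method named in the submitters' processing notes, without a version, and no source used here says which arrays were normalized together. Symbols came from the supplied platform annotation, mouse ones updated through a RefSeq table (GRCm38.p6), and 1 human probe set with several symbols including a member was not used. Mouse cyclin B1 is not reported here, as no annotated probe set was used for it.

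Control probe sets were left out, and genes were kept if the brightest probe set exceeded the 50th percentile on either array of the pair. Differences were counted at 1.1-fold, 1.5-fold and 2-fold without a test, beside all kept genes. Over both lines, which pair the arrays, limma 3.58.1 (R 4.3.3, Benjamini-Hochberg, threshold 0.05) was used. Other steps used Python 3.11.15 with pandas 2.3.3 and statsmodels 0.14.6. The scripts were tested on simulated data with genes shifted by known amounts. The members and lists were chosen with earlier results of these data known. Named genes were the target, all members and up to 4 genes with the widest differences of each other list and line.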

Additional observations from a re-analysis of the deposited data

Results flagged for a closer look

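The members as a list had medians of opposite sign in the lines, -0.088 in A375M and 0.026 in LM8, each relative to its own control array. All kept genes had medians of 0 in A375M and 0.015 in LM8. The LM8 sign depended on the probe sets used, with -0.0076 after averaging per gene and -0.012 over member probe sets above the array median. The difference between the lines was not tested, since each group held 1 array. No single member was at least 1.1-fold different in opposite directions. Among the other named genes 4 were. PLK4 was at -0.57 in A375M and 0.20 in LM8, a gap of -0.77, although its kept LM8 probe sets ranged from -0.19 to 0.20. Without marked probe sets PLK4 was at -0.30 in A375M and 0.046 in LM8, and with probe sets averaged at -0.31 and 0.019. In both settings its LM8 value was below 1.1-fold. E2F7 was at -0.48 in A375M and 0.30 in LM8 on 1 kept probe set in each line, a gap of -0.77. LIN9 was at -0.28 and 0.15, a gap of -0.43, and CHAF1B at -0.25 and 0.15, a gap of -0.40, each on 1 kept probe set per line. None of these gaps was tested.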

How the results depend on the processing

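The members' median kept its sign in A375M under all 8 alternative settings run, between -0.12 (arrays centred on their medians, where 31 of 31 read lower and 77.0% of all genes did) and -0.035 (repeated quantile normalization). In LM8 it kept its sign except with probe sets averaged per gene (-0.0076). In A375M the count of higher members, 0 as deposited, was 10 after repeated quantile normalization, 6 after loess, and 1 both with probe sets averaged per gene and without probe sets marked _x_at or _s_at, which share probes between transcripts. Without marked probe sets 16 of 21 kept members and 38.2% of all genes read lower, fewer being tested. After repeated quantile normalization 5 members were at least 1.1-fold lower, as were 10.5% of all genes. In LM8 the count at least 1.1-fold higher, 5 as deposited, was 3 after loess, 3 without marked probe sets and 1 with averaged probe sets, which also gave 8 at least 1.1-fold lower and turned KIF11 to -0.0048. The causes were not tested. The fit over both lines called 0 members in all 7 of its alternatives, with 2 of 29 (3.52% of all genes) at an unadjusted p under 0.05 where probe sets were averaged. Fitted with no replicate block, that is without pairing the arrays of a line, it also called 0. Without SHCBP1, an alternative added after the data were seen, the A375M median was -0.079 and 25 of 30 read lower. Arrays limit precision by their number and, for dim probe sets, by signal over background.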
